A study of Homo sapiens with 13 samples.

Results

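The WNT target and feedback genes AXIN2, LEF1, SP5, TCF7, NKD1, RNF43, ZNRF3, LGR5, NOTUM and APCDD1 were followed in human embryonic stem cells treated with BMP4 while WNT secretion was inhibited. These 10 genes were chosen by name as commonly used reporters and regulators of canonical WNT signaling, and all 10 were found among the 61541 genes of both count tables. The rule that defines them uses gene names only.

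The cells were RUES2, a human embryonic stem cell line, carrying a GFP::SMAD4 fusion, which reports the nuclear accumulation of SMAD4 upon BMP signaling. All 13 libraries came from this line, so every group shared the fusion. In the time series, 7 libraries were made from cells given 100 ng/mL BMP4, 5 µM IWP2 (an inhibitor of WNT secretion, WNTi) and ROCK inhibitor: 2 at 0 h and 1 each at 4, 12, 20, 28 and 42 h. The 0 h libraries bear the name of the same treatment and were read as cells collected at its start. In the dose response, 6 libraries were made at 5 h. Of these, 5 had the same BMP4, IWP2 and ROCK inhibitor with LDN-193189 (LDN, a BMP receptor inhibitor, BMPRi) at 0, 10, 30, 100 or 300 nM, and 1 was from cells in mTeSR maintenance medium, here called untreated. BMP4, IWP2 and ROCK inhibitor are named together in the treated libraries and not in the treatment of the untreated one, so their parts in any difference from untreated cannot be told apart. The time series was made with ribosomal RNA depletion and the dose response with polyA selection, so levels were compared only within each experiment.

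In canonical WNT signaling, ligands bind Frizzled receptors and LRP co-receptors, β-catenin escapes degradation, and nuclear β-catenin acts with factors of the TCF/LEF family to switch on target genes. Many of those targets act back on the pathway: AXIN2 in the β-catenin destruction complex, NKD1 at Dishevelled, RNF43 and ZNRF3 as ubiquitin ligases that clear Frizzled from the surface, NOTUM as a secreted enzyme that inactivates WNT ligands, and APCDD1 as a membrane inhibitor. In the mammalian gastrula BMP, WNT and Nodal act in sequence to pattern the epiblast, and in stem cell models of this stage WNT signaling downstream of BMP is commonly blocked with inhibitors of ligand secretion.

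The members are spread over 8 chromosomes in the GENCODE 44 annotation of GRCh38. AXIN2 (ENSG00000168646) lies at chr17:65528563-65561648 on the minus strand, NOTUM (ENSG00000185269) at chr17:81952507-81961840 on the minus strand and RNF43 (ENSG00000108375) at chr17:58353676-58417595 on the minus strand. The transcription factor genes SP5 (ENSG00000204335), TCF7 (ENSG00000081059) and LEF1 (ENSG00000138795) lie at chr2:170715337-170718078 (plus), chr5:134114681-134151865 (plus) and chr4:108047545-108168956 (minus). NKD1 (ENSG00000140807) is at chr16:50548396-50649249 (plus), ZNRF3 (ENSG00000183579) at chr22:28883572-29057488 (plus), LGR5 (ENSG00000139292) at chr12:71439798-71586310 (plus) and APCDD1 (ENSG00000154856) at chr18:10454635-10489949 (plus). Exons of TCF7 share 210 bases with SKP1 on the opposite strand, whose level reached 179.1 CPM in the time series and 306.1 CPM in the dose response. Whether the counting used strand is not given in the sources used here, so reads from these shared bases cannot be assigned to either gene with certainty. The exons of RNF43 share 4326 bases with ENSG00000285897 on the same strand, which was listed at no more than 1.25 CPM in any library, so the split of reads between both is uncertain. AXIN2 shares 1316 exon bases with ENSG00000266076 on the same strand, which was listed at no more than 0.0677 CPM.

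Promoter sequences are shown for SP5 and RNF43, the transcription factor gene with the most TCF/LEF cores in its window and the member with the largest positive linear trend over hours. The windows are the 250 bases before the start site in RefSeq on GRCh38.p14, written 5′ to 3′ on the strand of the gene. Capitals mark the core letters bound by TCF/LEF factors, CTTTGA and CTTTGT or their reverse complements TCAAAG and ACAAAG.
SP5, chr2:170715087-170715336, plus strand: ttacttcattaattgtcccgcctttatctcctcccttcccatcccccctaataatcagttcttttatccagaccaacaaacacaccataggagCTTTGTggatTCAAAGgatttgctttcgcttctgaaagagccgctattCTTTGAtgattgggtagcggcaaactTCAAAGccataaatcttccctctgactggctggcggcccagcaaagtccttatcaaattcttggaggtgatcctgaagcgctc
RNF43, chr17:58417535-58417784, minus strand: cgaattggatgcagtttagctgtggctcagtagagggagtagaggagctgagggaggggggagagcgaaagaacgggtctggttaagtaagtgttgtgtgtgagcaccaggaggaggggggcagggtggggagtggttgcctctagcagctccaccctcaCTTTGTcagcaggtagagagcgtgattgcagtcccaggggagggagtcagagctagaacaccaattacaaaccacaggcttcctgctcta
The SP5 window held 4 cores, 3 of CTTTGA and 1 of CTTTGT, with first letters at −157, −147, −109 and −83 from the start site. The RNF43 window shown held 1 core of CTTTGT, at −90, and the window of a second RNF43 start site, chr17:58402722-58402971, held 1 on the other strand, at −135. Windows were at hand for 5 of the 10 members (LEF1, SP5, TCF7, RNF43 and APCDD1), and for 3 of them at least 1 window held a core, namely SP5, TCF7 and RNF43. That count is by gene, and TCF7 and RNF43 had more than 1 window each, while the shares that follow are by window. Of all 35116 RefSeq promoter windows, searched on both strands, 11.2% held CTTTGA, 13.7% held CTTTGT and 22.8% held either. At least 4 cores were found in 20 windows (0.057%), that of SP5 among them. The limit of 4 was the count of SP5 itself, so this share is descriptive and tests nothing. A match describes the letters of the sequence, and occupancy was not measured.

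Total counts ranged from 37957385 to 71333471 per library in the time series and from 15600931 to 33989998 in the dose response, where the untreated library was the shallowest. Levels are given as CPM, the count scaled to a common library total, and a count of 3, taken as the limit of detection, equals 0.0421 to 0.079 CPM in the time series and 0.0883 to 0.1923 CPM in the dose response. Intervals are exact 95% binomial intervals of single libraries and cover counting error only. The share of counts on mitochondrial genes was 7.60% in 0 h replicate 1 and 7.90% in the untreated library, against 2.01% to 4.49% in the other libraries. Summed pluripotency markers fell from 4213 and 4850 CPM at 0 h to 1808 CPM at 42 h, while summed amnion markers rose from 11.0 and 11.4 CPM to 3932 CPM. Summed primitive streak markers rose from 1.79 and 1.46 CPM at 0 h to 4.41 CPM at 20 h, and were 1.72 CPM at 42 h. In the tests described below, the 1 primitive streak gene tested was called higher at 4, 12, 20 and 28 h, not at 42 h. Its log2 changes at these times were 2.28, 3.29, 3.74, 2.82 and 0.369. At 5 h, 1 was tested and called higher than untreated at 0 and 300 nM LDN (4.37 and 3.46). Neural markers stayed at or below 1.57 CPM in all 13 libraries. Endoderm markers summed to 2.97 and 3.27 CPM at 0 h and 3.97 CPM in the untreated library, nearly all of it FOXA2, against 0.0348 to 1.64 CPM in the treated libraries after 0 h. Summed trophoblast markers fell from 63.0 and 73.1 CPM at 0 h to 8.89 CPM at 42 h. At 5 h they were 40.0 CPM at 0 nM LDN, 71.0 CPM at 300 nM and 74.0 CPM untreated. Only 1 of the 4 trophoblast genes averaged 1 CPM or more in either experiment. In the untreated library the other 3 were at or under the limit of detection, so the sums do not describe the list as a whole. Fibroblast markers were between 83.0 CPM, at 42 h, and 209 CPM, at 4 h. At least 1 gene of the trophoblast list and of the fibroblast list was at or under the limit of detection in all libraries, except that of 28 h for the trophoblast list. The part of these markers in the results below was not tested, and in bulk RNA fewer cells expressing a gene cannot be told apart from less RNA per cell.

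The first question was how the members changed over time after BMP4 with WNT secretion inhibited. AXIN2 fell, NOTUM, TCF7 and NKD1 rose within 4 h, LEF1 rose by 20 h, RNF43 climbed until 42 h, APCDD1 had fallen by 42 h and ZNRF3 did not pass any test. Each time was compared with the 2 libraries at 0 h by edgeR's quasi-likelihood test, and p-values were adjusted by Benjamini-Hochberg over the 15976 genes that averaged 1 CPM or more. No later time had a replicate, so lone libraries were assumed to vary like the pair at 0 h. The labels do not state separate cultures for that pair, so the p-values measure the spread between these libraries, which may be technical. A gene was called at an adjusted p under 0.05, and 8 of the 10 members passed the filter, all but SP5 and LGR5.

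At 4 h, 3 of the 8 were called higher (TCF7, NKD1 and NOTUM) and 1 lower (AXIN2), where 4.39% of all genes tested were called higher and 0.632% lower. The counts were 3 higher and 1 lower at 12 h (7.04% and 2.64% of all genes), 5 higher and 1 lower at 20 h (12.4% and 6.01%), and 4 higher and 1 lower at 28 h (13.3% and 7.04%). At 42 h, 2 were higher (RNF43 and NOTUM) and 3 lower (AXIN2, NKD1 and APCDD1), against 19.9% and 17.8% of all genes (3173 and 2851, or 2415 and 3963 on library totals). The joint test of the 5 times called 7 of the 8, all except ZNRF3, against 34.9% of all genes. The median log2 change of the 8 was 0.81 at 4 h, 1.10 at 20 h and 0.23 at 42 h, where the median of all genes tested was −0.01 at each of these times. On library totals the median gene fell by 0.23 in log2 CPM from 0 to 42 h. The TMM scaling of the tests removes that shift.

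A straight line over hours was fitted as well, with its coefficient read as the fitted log2 change from 0 to 42 h. Its error came from the scatter about the line, so an early change that then levels off or reverses adds to the error. This trend called 1 of the 8 members higher (RNF43) and 2 lower (AXIN2 and APCDD1), against 19.2% and 17.5% of all genes tested. Over all genes these are 3072 higher and 2793 lower, or 2121 and 4069 on library totals and 2102 and 3750 with limma on FPKM.

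AXIN2, a scaffold of the β-catenin destruction complex and the most widely used readout of WNT activity, had the largest fitted fall of the 8 members tested. It measured 65.4 and 62.6 CPM in the 0 h libraries, then 22.9, 8.08, 10.2, 10.8 and 8.37 CPM at 4, 12, 20, 28 and 42 h. All 5 later libraries lay below both 0 h libraries, and most of the fall had taken place by 12 h. The mean at 0 h was 64.0 ± 2.01 CPM (SD, n = 2), 2.79-fold the 4 h value and 7.65-fold the 42 h value. By edgeR's quasi-likelihood test the log2 change was −1.56 (SE 0.34) at 4 h and −2.70 (SE 0.36) at 42 h, with Benjamini-Hochberg adjusted p = 0.000143 and 1.08e-12. The linear trend was −2.66 (SE 0.74, adjusted p = 0.0239 in the same test). Its call was lost without 0 h replicate 1 (adjusted p = 0.0666), 0 h replicate 2 (0.0552) or the 28 h library (0.0592).

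NOTUM, the secreted WNT deacylase, moved the other way. It had 2 and 12 counts in the 0 h libraries (0.0527 and 0.168 CPM) and reached 31.5, 41.4, 57.8 and 46.5 CPM at 4, 12, 20 and 28 h, before 19.2 CPM at 42 h. All 5 later libraries stood far above 0 h, and the level at 20 h was 3.01-fold that at 42 h. With the 14 counts at 0 h pooled, the ratio was 246 (95% interval 146 to 450) at 4 h, 451 (269 to 826) at 20 h and 150.0 (89.1 to 275) at 42 h. edgeR's quasi-likelihood test gave a log2 change of 7.86 (SE 0.42, Benjamini-Hochberg adjusted p = 2.94e-74) at 4 h and 7.47 (SE 0.42, adjusted p = 1.37e-68) at 42 h. The linear trend of 2.91 (SE 2.94) was not called, with adjusted p = 0.463.

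**Figure D1:**
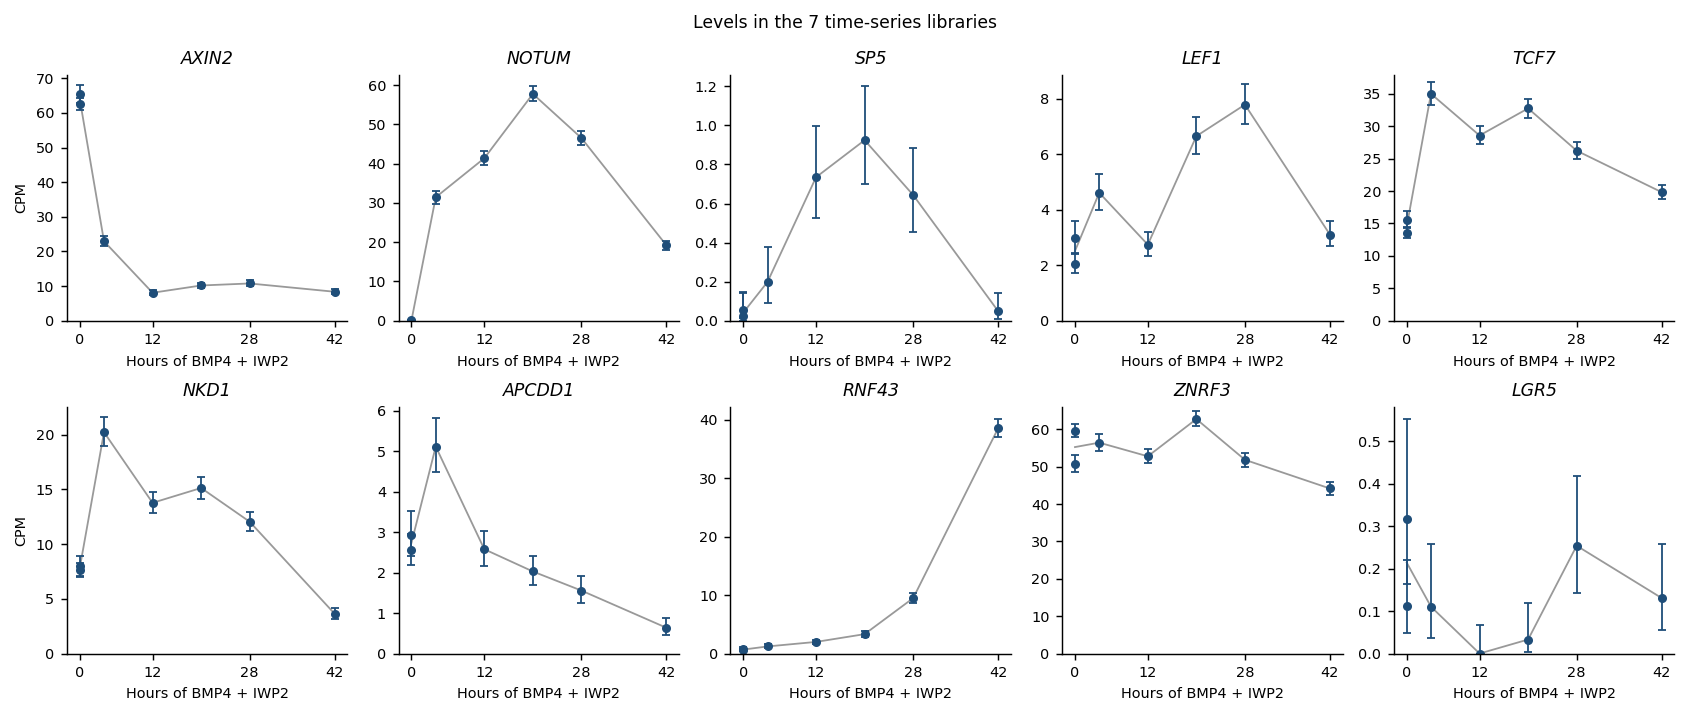
Level of each of the 10 genes (CPM, y axis from 0, own scale per panel) against hours of BMP4 with IWP2. Points are libraries (2 at 0 h, 1 at each later time), bars are exact 95% binomial intervals for counting error, and lines join the means. AXIN2 dropped from 65.4 and 62.6 CPM to 8.37 CPM, NOTUM peaked at 57.8 CPM at 20 h, and RNF43 reached its highest level, 38.5 CPM, at 42 h.

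Among the transcription factors, TCF7 encodes TCF1, a nuclear partner of β-catenin. It measured 15.5 and 13.5 CPM at 0 h, then 35.0, 28.6, 32.7, 26.2 and 19.8 CPM at 4, 12, 20, 28 and 42 h. Every later library was above both 0 h libraries. In CPM the 4 h library was the highest. After TMM scaling the 20 h library was, at 32.87 against 32.32 at 4 h, so the time of the highest level depended on the scaling. The log2 change was 1.18 (SE 0.30) at 4 h and 0.68 (SE 0.31) at 42 h, called at the former (adjusted p = 0.00279, edgeR's quasi-likelihood test, Benjamini-Hochberg adjusted) and not at the latter (0.0632).

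LEF1, another factor of the same family, stood at 2.98 and 2.05 CPM at 0 h, then 4.61, 2.74, 6.65, 7.79 and 3.10 CPM at 4, 12, 20, 28 and 42 h. The 12 h value lay between the 0 h libraries and the other later values above them. LEF1 was called at 20 h (log2 change 1.45, SE 0.37) and 28 h (1.71, SE 0.37), with Benjamini-Hochberg adjusted p = 0.000827 and 3.24e-05 by edgeR's quasi-likelihood test. Its linear trend of 1.16 (SE 0.67) was not called (adjusted p = 0.209), but it was called without the 42 h library (2.39, adjusted p = 0.0252).

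SP5, a zinc finger factor that is a direct WNT target in many species and restrains other targets, was near the limit of detection. It had 1 and 4 counts at 0 h, followed by 9, 41, 56, 38 and 3 counts at 4, 12, 20, 28 and 42 h. The highest level, 0.924 CPM at 20 h (95% interval 0.698 to 1.20), was 20.2-fold the pooled 0 h level (8.16 to 64.6) and 18.9-fold that at 42 h (6.13 to 94.2). SP5 was not tested at the filter of 1 CPM. In the fit without a filter on 39033 genes it was called at 12, 20 and 28 h with log2 changes of 3.89, 4.33 and 3.85 and not at 4 or 42 h.

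NKD1, an inhibitor that binds Dishevelled, rose and then dropped below its starting level. It measured 7.98 and 7.63 CPM at 0 h, then 20.2, 13.8, 15.1, 12.0 and 3.63 CPM at 4, 12, 20, 28 and 42 h. The 4 libraries from 4 to 28 h lay above both 0 h libraries, and the 42 h library lay below them. The log2 change was 1.29 (SE 0.30) at 4 h, 0.99 (SE 0.30) at 20 h and −0.87 (SE 0.33) at 42 h, with Benjamini-Hochberg adjusted p = 0.00077, 0.0086 and 0.0274 by edgeR's quasi-likelihood test. At 12 and 28 h it was not called (adjusted p = 0.0994 and 0.0985). The 42 h call was lost without a filter (adjusted p = 0.103) and with DESeq2 (0.0819).

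APCDD1, a membrane glycoprotein that inhibits WNT at the receptor level, measured 2.92 and 2.55 CPM at 0 h, then 5.12, 2.58, 2.03, 1.56 and 0.637 CPM at 4, 12, 20, 28 and 42 h. The 4 h library was the highest and the libraries from 20 to 42 h were the lowest, below both at 0 h. The difference at 4 h (log2 change 0.82, SE 0.41) was not called, with adjusted p = 0.432. It was called lower at 42 h (−1.86, SE 0.49) and in the linear trend (−2.01, SE 0.48), with Benjamini-Hochberg adjusted p = 0.000788 and 0.013 by edgeR's quasi-likelihood test. Without the 42 h library the trend was not called (adjusted p = 0.13).

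RNF43 and ZNRF3 encode related transmembrane ubiquitin ligases, and their profiles are given side by side. RNF43 measured 0.790 and 0.561 CPM at 0 h, then 1.21, 1.99, 3.32, 9.48 and 38.5 CPM at 4, 12, 20, 28 and 42 h, so that each time exceeded the one before it. Pooled over 0 h, its level at 42 h was 60.2-fold higher (95% interval 47.4 to 77.4), and it was 4.07-fold that at 28 h. edgeR's quasi-likelihood test called RNF43 from 12 h on (log2 change 1.55, SE 0.37, Benjamini-Hochberg adjusted p = 0.000664) up to 42 h (6.10, SE 0.36, adjusted p = 1.26e-62), and in the linear trend (5.95, SE 0.28, adjusted p = 1.27e-05). ZNRF3 measured 50.8 and 59.7 CPM at 0 h, then 56.4, 52.8, 62.7, 51.8 and 44.2 CPM at 4, 12, 20, 28 and 42 h. In CPM only the 20 and 42 h libraries lay outside the 0 h pair, whose mean was 55.2 ± 6.26 CPM (SD, n = 2). After TMM scaling the 42 h value, 50.95, lay within the 0 h pair of 50 and 58.1. The joint test for ZNRF3 did not call it, with adjusted p = 1 in edgeR's quasi-likelihood test, and its log2 change at 42 h was −0.09 with an SE of 0.33. The difference between both profiles was not tested. Leaving out a 0 h library leaves no spread for these per-time tests, so they have no such check.

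LGR5, the R-spondin receptor and a stem cell marker of the gut, was at or near the limit of detection throughout. It had 12 and 8 counts at 0 h and 5, 0, 2, 15 and 8 counts at 4, 12, 20, 28 and 42 h. The 0 counts at 12 h allow a level of up to 0.0537 CPM. LGR5 was not tested at the filter of 1 CPM. In the fit without a filter it was called lower at 12 h and in the joint test (Benjamini-Hochberg adjusted p = 0.037 and 0.0415 by edgeR's quasi-likelihood test), which rests on 0 counts at 12 h against 12 and 8 at 0 h.

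Levels of different genes were compared by FPKM, which is scaled by gene length. At 0 h AXIN2 had the highest mean, 27.8 FPKM, followed by ZNRF3 at 13.9, TCF7 at 6.27 and NKD1 at 3.21 FPKM. LEF1 (1.28 to 1.55 FPKM) and APCDD1 (1.04 to 1.39 FPKM) overlapped between the 2 libraries. So did RNF43 (0.15 to 0.17 FPKM) with LGR5 (0.04 to 0.18 FPKM), and LGR5 with NOTUM (0.05 to 0.10 FPKM), and SP5 was last at 0.02 FPKM. By 20 h NOTUM was the highest at 35.0 FPKM and AXIN2 had come down to 4.93 FPKM. At 42 h RNF43 (12.2 FPKM), NOTUM (12.1 FPKM) and ZNRF3 (10.3 FPKM) led, with 1 library and no replicate error to order them.

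**Figure D2:**
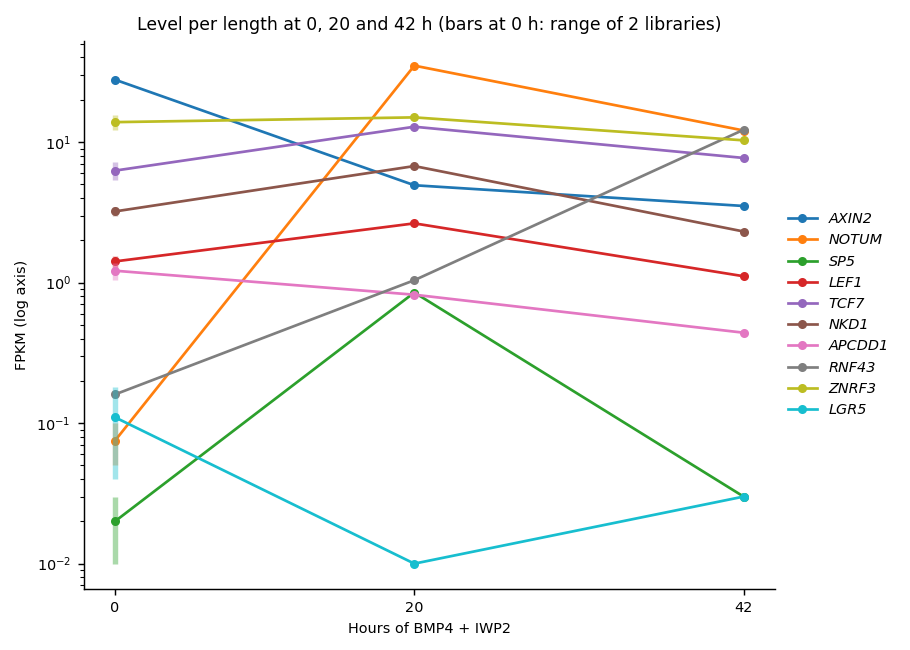
Level per gene length (FPKM, log axis) of the 10 genes at 0, 20 and 42 h of BMP4 with IWP2. Points are the mean of 2 libraries at 0 h, with pale bars for their range, and 1 library at each later time. AXIN2 went from first at 27.8 FPKM to 3.51 FPKM, while RNF43 went from 0.16 to 12.2 FPKM.

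The dose response asked how the members depended on the level of BMP signaling at 5 h. NOTUM and TCF7 were higher and AXIN2 lower as SMAD4 signaling increased, NKD1 was called higher in counts but not in FPKM, and LEF1, ZNRF3 and APCDD1 were not called. The fit used the study's SMAD4 signaling measure of each LDN dose as a covariate, scaled so that the coefficient is the fitted log2 difference of 0 nM over 300 nM LDN, with the untreated library set apart by its own term. Of the 14877 genes tested, 10.6% were called higher with SMAD4 signaling and 10.1% lower (1584 and 1508, or 656 and 401 with limma on FPKM). Of the 7 members tested, 3 were called higher and 1 lower. RNF43, SP5 and LGR5 were under the filter of 1 CPM. Each dose had 1 library, so the error came from how far the doses lay off the fitted line.

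NOTUM had 34.3, 22.0, 11.8, 4.37 and 0.996 CPM at LDN doses of 0, 10, 30, 100 and 300 nM, beside 0.320 CPM (5 counts) untreated. Each higher dose of LDN gave a lower level, and the 95% counting intervals of the 5 doses did not overlap. The 0 nM level was 34.4-fold that at 300 nM (95% interval 24.4 to 50.3) and 107-fold that of untreated cells (45.7 to 330.0). The fitted trend was 4.41 (SE 0.28, adjusted p = 2.9e-07 by edgeR's quasi-likelihood test, Benjamini-Hochberg adjusted).

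AXIN2 ran in the opposite order, with 15.3, 19.4, 25.8, 33.0 and 40.0 CPM at LDN doses of 0, 10, 30, 100 and 300 nM, beside 45.3 CPM untreated. The level at 300 nM was 2.61-fold that at 0 nM (95% interval 2.34 to 2.91). Its fitted trend of −1.41 (SE 0.08) had adjusted p = 2.2e-07 by edgeR's quasi-likelihood test, Benjamini-Hochberg adjusted. NOTUM and AXIN2 were thus ordered by LDN dose without exception, in opposite directions.

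**Figure D3:**
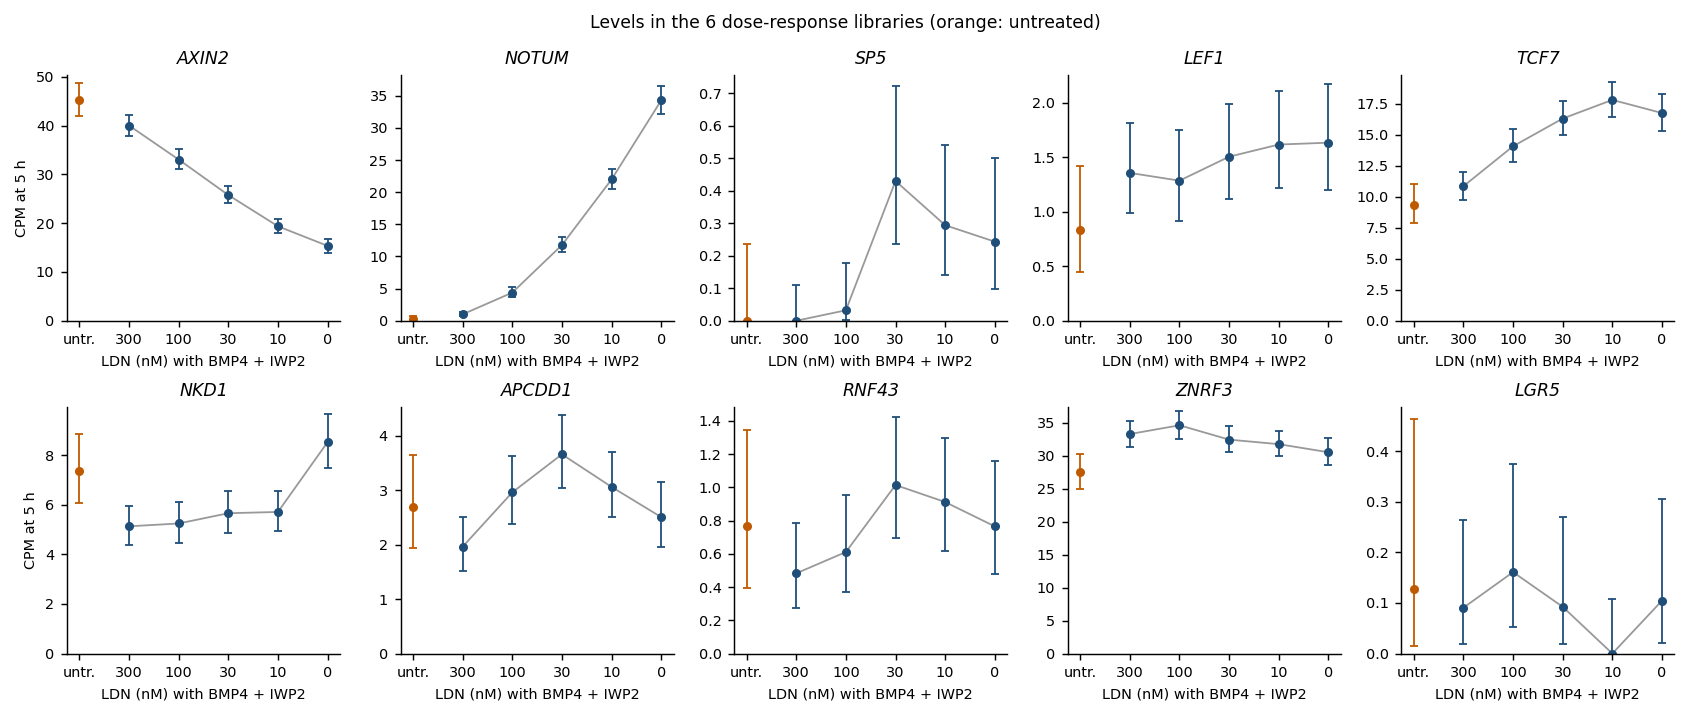
Level of each of the 10 genes at 5 h (CPM, y axis from 0, own scale per panel) in untreated cells (orange) and with BMP4, IWP2 and LDN from 300 to 0 nM (blue), so that BMP signaling increases to the right. Each point is 1 library and each bar an exact 95% binomial interval for counting error. NOTUM climbed from 0.996 to 34.3 CPM between 300 and 0 nM LDN, and AXIN2 dropped from 40.0 to 15.3 CPM.

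TCF7 measured 16.8, 17.8, 16.3, 14.1 and 10.9 CPM at LDN doses of 0, 10, 30, 100 and 300 nM, beside 9.36 CPM untreated. The 3 lowest doses were close to each other, and 300 nM was the lowest of the treated libraries. Its trend was 0.63 (SE 0.13, adjusted p = 0.00543, edgeR's quasi-likelihood test, Benjamini-Hochberg adjusted), and the call was lost without the 300 nM library (adjusted p = 0.178) and with limma on FPKM (0.081). LEF1 was within 1.29 to 1.64 CPM at all 5 doses, with 0.833 CPM (13 counts) in untreated cells, and its trend of 0.33 (SE 0.29) was not called. The fitted log2 difference of LEF1 at 0 nM LDN from untreated cells was 0.91 (SE 0.38). It was not called, but among the alternatives it was on library totals and with limma on FPKM.

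NKD1 measured 8.52, 5.71, 5.66, 5.24 and 5.13 CPM at LDN doses of 0, 10, 30, 100 and 300 nM, beside 7.37 CPM untreated. The 0 nM library stood above the other doses, which lay close together. The trend of 0.64 (SE 0.19, adjusted p = 0.0292 by edgeR's quasi-likelihood test, Benjamini-Hochberg adjusted) was lost without the 0 nM library (0.22, adjusted p = 0.571), without the 100 nM library (adjusted p = 0.0705) and with DESeq2 (0.104). In the deposited FPKM the order of NKD1 was another, with 1.88, 2.83, 1.82, 2.63 and 2.68 FPKM over the same doses and 0.96 FPKM untreated. On that scale the fitted trend of NKD1 was negative and not called (−0.36, adjusted p = 0.512 in limma), so its direction at 5 h depended on the unit, and the cause was not tested.

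The remaining feedback genes showed no called trend. ZNRF3 lay between 30.5 CPM at 0 nM and 34.6 CPM at 100 nM LDN, with 27.5 CPM in untreated cells and a trend of −0.16 (SE 0.07). APCDD1 was highest at 30 nM with 3.66 CPM and lowest at 300 nM with 1.96 CPM, against 2.69 CPM in untreated cells, and its trend of 0.31 (SE 0.33) was not called. RNF43 had 12 to 33 counts per library, 0.483 to 1.01 CPM. Its level at 30 nM was 2.10-fold that at 300 nM (95% interval 1.12 to 4.09). These were the doses with the highest and the lowest level, so this interval is no test of a dose effect. The trend of RNF43 in the fit without a filter was 0.73 (SE 0.49) and was not called. The untreated library at 0.769 CPM lay within the range of the doses. SP5 had 7, 10 and 14 counts at 0, 10 and 30 nM LDN and 1 count at 100 nM. It had 0 counts at 300 nM and in untreated cells, where the 95% intervals reach up to 0.111 and 0.236 CPM. Its trend in the fit without a filter was not called (adjusted p = 0.114 by edgeR's quasi-likelihood test, Benjamini-Hochberg adjusted). The same fit called SP5 higher at 0 nM LDN than in untreated cells (log2 difference 6.78, SE 2.54), where the libraries had 7 and 0 counts. LGR5 had 0 to 5 counts in all 6 libraries.

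Compared with untreated cells, BMP4 without LDN gave higher NOTUM (fitted log2 difference 6.88, SE 0.52) and TCF7 (0.91, SE 0.16) and lower AXIN2 (−1.60, SE 0.09), with Benjamini-Hochberg adjusted p = 7.11e-07, 0.000667 and 4.71e-08 by edgeR's quasi-likelihood test. These 2 higher and 1 lower of 7 members stand beside 22.9% and 21.9% of all genes tested (3405 and 3255, or 4466 and 2401 on library totals and 3710 and 2051 with limma on FPKM). At 300 nM LDN, ZNRF3 was called higher (0.25, SE 0.08, adjusted p = 0.0386) and NKD1 lower (−0.71, SE 0.21, adjusted p = 0.0216) than in untreated cells in the same edgeR fit, against 16.3% of all genes in each direction (2419 and 2418, or 3180 and 1678 on library totals and 2718 and 1488 with limma on FPKM). The ZNRF3 call was lost with DESeq2 (adjusted p = 0.138), with limma (0.0931), and without the 10, 30 or 100 nM library (0.0516, 0.0543 and 0.114). The NKD1 difference was positive on the FPKM scale (1.38, adjusted p = 0.0165 in limma). AXIN2 at 300 nM was not called different from untreated cells (−0.19, SE 0.08), with adjusted p = 0.102 in edgeR's quasi-likelihood test. NOTUM at 300 nM had a fitted difference of 2.46 (SE 0.90, adjusted p = 0.0543 in the same test), and it was called under 6 of the alternatives that keep the 300 nM library. By counts alone NOTUM at 300 nM was 3.11-fold untreated (95% interval 1.21 to 10.2), from 33 and 5 counts.

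**Figure D4:**
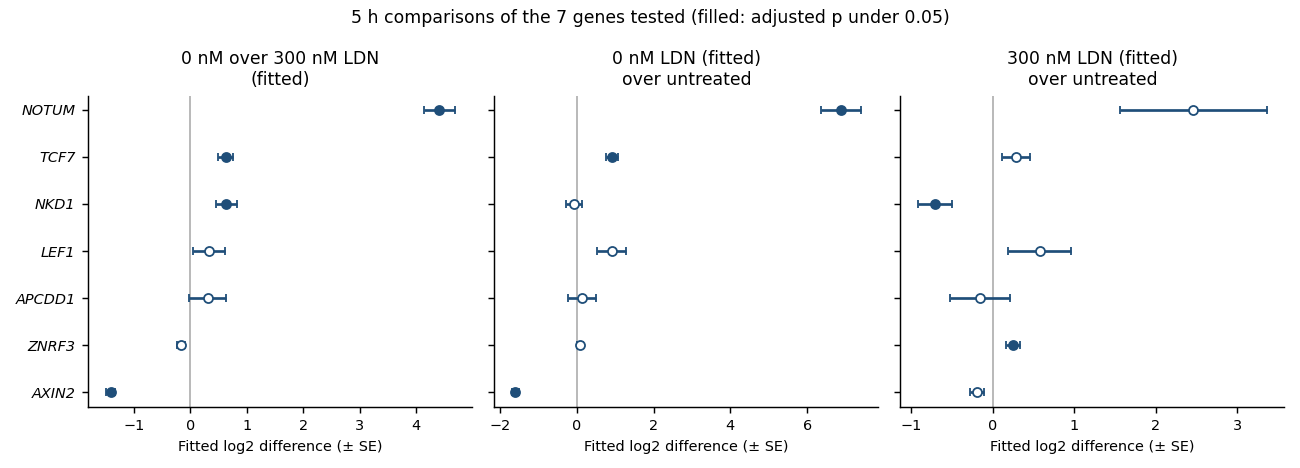
Fitted log2 differences (points) with their SE (bars) of the 7 genes tested at 5 h, for 0 nM over 300 nM LDN, 0 nM LDN over untreated and 300 nM LDN over untreated, filled where the Benjamini-Hochberg adjusted p was under 0.05 in edgeR's quasi-likelihood test. NOTUM (4.41, 6.88 and 2.46) and AXIN2 (−1.41, −1.60 and −0.19) lie at opposite ends of each panel except that NKD1 (−0.71) is the lowest in the last.

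The response to BMP itself was checked with ID1, ID2, ID3, SMAD6, SMAD7 and BAMBI, direct targets of BMP receptor signaling. All 6 were called higher at 4 h, with SMAD4 signaling, and at both 0 and 300 nM LDN against untreated. The shares of all genes called higher in these comparisons were 4.39%, 10.6%, 22.9% and 16.3%. SMAD6, for example, had a fitted log2 difference of 5.69 at 0 nM and 1.93 at 300 nM. The linear trend over hours called only 1 of the 6 higher, ID2 (3.82, SE 1.17), beside 19.2% of all genes. Against 0 h, however, the median log2 change of the 6 was 3.41, 4.05, 4.44, 4.39 and 4.65 at 4, 12, 20, 28 and 42 h. A rise that is present by 4 h and then kept is poorly described by a straight line.

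The other WNT genes were counted in lists of receptors, transduction components and other targets. The shares called over all genes were those given above, 19.2% higher and 17.5% lower over hours and 10.6% and 10.1% with SMAD4 signaling. Of 16 receptors tested, 3 were called higher and 4 lower over time, close to these shares. FZD7, the most abundant of those named, dropped from 903 and 993 CPM at 0 h to 101 CPM at 42 h (trend −2.83, SE 0.41), ROR1 from 222 and 170 to 38.5 CPM (−2.41, SE 0.30), and FZD4 rose from 15.0 and 14.4 CPM to 78.6 CPM at 28 h and stood at 47.2 CPM at 42 h (2.46, SE 0.59). With SMAD4 signaling 3 of 16 receptors were higher and 4 lower, among them FZD1 (2.57, SE 0.14), ROR2 (1.13, SE 0.12) and FZD7 (−1.15, SE 0.06). FZD7 measured 205 CPM at 0 nM LDN, 455 CPM with 300 nM and 700.3 CPM untreated, the same order as AXIN2.

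Of 24 transduction components, 9 were called higher over time and 2 lower, beside 19.2% and 17.5% of all genes. WLS, the carrier that brings WNT ligands to the cell surface, went from 0.659 and 1.09 CPM at 0 h to 398 CPM at 42 h (trend 9.73, SE 0.55). The corepressor TLE3 rose from 137 and 138 to 719 CPM (2.75, SE 0.23), and TCF7L1, a TCF factor that mostly represses, fell from 336 and 241 to 72.5 CPM (−2.06, SE 0.54). At 5 h, 3 of 24 were higher with SMAD4 signaling and 5 lower, beside 10.6% and 10.1% of all genes, with TCF7L1 at 102 CPM at 0 nM LDN, 159 CPM with 300 nM and 230 CPM untreated (trend −0.64, SE 0.08), and TLE2 (0.71, SE 0.11) and BCL9 (0.41, SE 0.06) higher. TCF7L1 and TCF7, factors of the same family, thus had trends of opposite sign at 5 h.

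Of the other targets, 7 of 13 were tested over time, with 2 higher and 3 lower, and 5 of 13 in the dose response, with 0 higher and 2 lower, beside the same shares of all genes. The caudal factor CDX2 rose to 25.9 CPM at 42 h from 1 count and 0 counts at 0 h, and TNFRSF19 rose from 0.817 and 0.701 to 29.0 CPM (trend 5.84, SE 0.32). CD44 fell from 10.3 and 8.30 to 0.621 CPM (−3.33, SE 0.38). MYC, the growth regulator, was lower with SMAD4 signaling, at 55.7 CPM without LDN, 102 CPM with 300 nM and 128 CPM untreated (−0.82, SE 0.07). The median trend over hours was −0.11 for receptors, 0.29 for transduction components and −0.73 for other targets, beside 0.23 for the 8 members and −0.0047 for all genes tested.

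For the 7 members that passed the filter in both experiments, all but RNF43, SP5 and LGR5, the most similar genes were found by the Pearson correlation of log2(CPM + 0.5) over the 13 libraries, centred within each experiment, among 14563 genes. The points share library, depth and time course, so these values are descriptive. AXIN2 was most like LEFTY1 (r = 0.985), an inhibitor of Nodal, and BMP2 (0.975). NOTUM was most like BAHCC1 (0.991) and ENSG00000230699 (0.990), and TCF7 most like BCL11B (0.982) and SIRPA (0.977). For LEF1 the closest were PTGFRN (0.954) and COL6A1 (0.936), for NKD1 KCNH5 (0.962) and DZIP1 (0.947), for ZNRF3 B4GALNT4 (0.968) and PHLDB1 (0.962), and for APCDD1 NTSR1 (0.967) and ELFN2 (0.957). Between members, NOTUM had r = 0.922 with TCF7 and −0.913 with AXIN2.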

How the data were processed

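Bulk RNA-seq of 13 libraries of the GFP::SMAD4 RUES2 line was analysed in 2 experiments. Per the labels and methods, the authors used STAR 2.7.8a for mapping on GRCh38 and RSEM 1.3.3 for the estimated counts. The annotation release is not given in the sources used here. The deposited expected counts were whole numbers, not scaled for depth. The deposited FPKM values, which the authors scaled for depth and gene length, served for levels between genes and as an alternative with limma 3.58.1 on log2(FPKM + 0.1). The 5 features that name no human gene held at most 0.00301% of counts and were left out.

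CPM used the library total. edgeR 4.0.16 (quasi-likelihood test, TMM, R 4.3.3) was fitted on all genes averaging 1 CPM or more, with Benjamini-Hochberg adjustment at 0.05. The time fits were a line in hours and one coefficient per later time, and the dose fit was a line in SMAD4 signaling, taken from the study's source data, with a term for the untreated library. DESeq2 1.42.0 was an alternative. Others were the scaling, the filter, equal time or dose steps and each library left out. Positions came from GENCODE 44 and promoters from RefSeq GRCh38.p14. Python 3.11.15 drew the figures.

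The members, lists and tests were chosen with earlier results of these data known. All 10 members are named. Other WNT genes are named where they had a mean of at least 5 CPM, a called trend and one of the 3 largest changes of their list.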

Additional observations from a re-analysis of the deposited data

Results flagged for a closer look

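For 2 genes the ratio of CPM in the early response to BMP4 differed in sign between the experiments, and the difference was not tested. RNF43 was higher at 4 h than in both 0 h libraries (log2 ratio of CPM 0.845) and at 0 nM LDN close to untreated cells at 5 h (−0.007), a difference of 0.852. APCDD1 had log2 ratios of 0.903 and −0.104, a difference of 1.01. In the edgeR fits the difference of 0 nM LDN from untreated cells was positive for both genes, 0.14 for APCDD1 and, without a filter, 0.25 for RNF43, while limma on FPKM gave −0.61 for APCDD1. The second ratio rests on 22 and 12 counts for RNF43 and on 72 and 42 counts for APCDD1. Library preparation, time and control differ between both experiments and cannot be told apart.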

How the results depend on the processing

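Of the values recomputed under the alternatives, 519 kept their direction and call, or for counts and values without a test moved little, 16 lost and 11 gained a call, 18 counts moved and 19 changed sign. The cause was not tested.

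Members called over hours numbered 1 to 2 higher and 1 to 2 lower when single libraries were left out (2 higher without 42 h), and 1 lower with a minimum of 2.5 CPM, which APCDD1 does not reach. With limma on FPKM, 1 member was called higher with SMAD4 signaling, 4 higher at 0 nM LDN against untreated, and 2 higher and 0 lower at 300 nM against untreated. For the last comparison 2 were also higher on library totals, without a filter and with 2.5 CPM, and 0 to 3 when libraries were left out (3 without the 300 nM library, where its level is only extrapolated).

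Some values changed sign. The hours trend of NKD1 was 0.71 without 42 h (−1.19 to 0.71 over the libraries left out), and that of ZNRF3 0.082 without a filter, 0.00018 with equal time steps and −0.079 to 0.13 when single libraries were left out. ZNRF3 at 4 h was 0.030 on library totals. With limma on FPKM, NKD1 was −0.36 with SMAD4 signaling, 1.02 at 0 nM and 1.38 at 300 nM LDN against untreated, and APCDD1 −0.061 with SMAD4 signaling and −0.61 at 0 nM against untreated. NKD1 at 0 nM against untreated was 0.010 on library totals. With libraries left out, NKD1 at 0 nM against untreated ranged from −0.38 to 0.042, and APCDD1 from −0.39 to 0.86 with SMAD4 signaling, −0.038 to 0.54 at 0 nM and −0.32 to 0.36 at 300 nM against untreated. The log2 ratio of TMM-scaled CPM to 0 h was also taken with either 0 h library left out. For ZNRF3 it ranged from −0.16 to 0.060 at 4 h and −0.19 to 0.027 at 42 h. For LGR5 it ranged from −1.02 to 0.47 at 42 h.

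Over all genes, DESeq2 called 455 at 4 h, 971 at 12 h and 1984 with SMAD4 signaling (edgeR 802, 1547 and 3092), and limma on FPKM 1057 with SMAD4 signaling. Without 42 h, 3343 genes followed hours instead of 5865, and without 300 nM LDN 2042 followed SMAD4 signaling. Depth limits SP5, LGR5 and, at 5 h, RNF43. No later time and no dose had a replicate.
No paired analysis was possible because the groups compared share fewer than 2 replicate numbers.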
